A study of Mus musculus with 8 samples.

Results

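The genes of the cytosolic ribosomal proteins were followed across 8 RNA-seq libraries of mouse spleen CD8+ T cells. Genes were taken by symbol (Rpl or Rps followed by a digit or by p), leaving out the Rps6k kinases and the symbols marked -ps, and were kept where the mean over the 8 libraries was 5 CPM or more (CPM, counts scaled to the library total). Of 100 rows with such symbols, 10 were Rps6k genes and 6 were -ps rows; 84 were left, of which 4 lay under the limit. The remaining 80 genes, of 29426 in the table, comprised 30 of the 40S subunit, 42 of the 60S subunit, 3 of the P stalk (Rplp0, Rplp1 and Rplp2), and 5 paralogs or related genes. The genes were chosen by mean CPM, so their levels are given as a description. Rps27rt lay just inside the limit at 5.52 CPM and Rpl23a just outside it at 1.20 CPM.

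The libraries formed 4 groups of 2, labelled mCre-MP, mCre-TN, WT-MP and WT-TN. The series title pairs miR-29 with Cre, and no label spells out the allele, promoter or Cre driver of the mCre mice. Spleens were adult or neonatal, and the labels tie no library to an age. CD8+ cells were enriched on beads and sorted into subsets by CD44 and CD122 staining; TN and MP are the subset names in the titles, and the design text writes VM in place of MP. Nothing states that the 2 libraries of a group came from separate animals, so p-values measure the spread between libraries, which may be technical. Library totals lay between 13479586 and 30057658 counts. Cd44 was at 138 to 162 CPM in MP libraries and 13.1 to 16.5 CPM in TN libraries, Il2rb (CD122) at 1077 to 1374 CPM in MP and 184 to 205 CPM in TN, and Cd8a at 1575 to 1858 CPM in all libraries. Cd4 stayed at or under 0.366 CPM.

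Ribosomal proteins assemble with ribosomal RNA into the small (40S) and large (60S) subunits, which join on messenger RNA to make protein. The P stalk of the large subunit recruits the elongation factors. Most ribosomal protein mRNAs begin with a run of pyrimidines, the 5′ TOP motif, through which mTOR signalling and the RNA-binding protein Larp1 control their translation, and T cells enlarge this machinery when they leave quiescence.

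The start sites of 5 genes that recur in the results are shown with the nearby run of pyrimidines marked, whether or not it lies at the start. The lines give 15 bases either side of the annotated start from RefSeq (GRCm38.p6), 5′ to 3′ on the gene's strand, with capitals for the longest run of C or T among those that reach within 10 bases of the start. The windows lie at chr10:23787195-23787224 (minus strand) for Rps12, chr3:28805493-28805522 (plus) for Rpl22l1, chr17:27635230-27635259 (minus) for Rps10, chr7:28350674-28350703 (plus) for Rps16 and chr1:72711245-72711274 (plus) for Rpl37a.
Rps12: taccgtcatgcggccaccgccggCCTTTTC
Rpl22l1: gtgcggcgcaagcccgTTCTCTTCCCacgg
Rps10: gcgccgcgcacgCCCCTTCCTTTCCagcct
Rps16: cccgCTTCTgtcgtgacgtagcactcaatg
Rpl37a: ttccgCTCgccggtctaaaaccgcgcatgc
The run was 10 bases long in Rpl22l1, 13 in Rps10, 5 in Rps16 and 3 in Rpl37a. The Rps10 run spanned the annotated start and the Rpl22l1 run lay just downstream of it. The Rps16 and Rpl37a runs lay wholly upstream of the RefSeq start. GENCODE M21, used here for transcript lengths, places the gene starts of all 5 genes outside the printed windows. For Rpl37a that start lies downstream of the window (72711290). For the others it lies upstream (28350652 for Rps16), so those windows fall inside the GENCODE gene. In Rps12 the run began downstream of the annotated start and held 7 bases up to the end of the printed line. RefSeq windows were at hand for 61 of the 80 genes (72 windows of 250 bases before to 50 after the start). A run of 5 or more C or T inside the 10 bases either side of the start was present in 52.78% of these windows. Among all 32851 windows the share was 34.41%. For a run of 8 or more the shares were 29.17% and 7.431%. The letters CCGGAAG, on either strand, were present in 34.72% of the ribosomal protein windows against 8.858% of all windows. AAGATGGC was present in 11.11% against 2.749%, CACGTG in 11.11% against 7.15%, and TATAAA in 9.722% against 13.62%. These are counts of letters, not of bound sites.

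Together the 80 genes took 8.82% and 9.11% of all counts in mCre-MP, 8.37% and 8.15% in mCre-TN, 9.71% and 9.56% in WT-MP, and 8.78% and 9.54% in WT-TN. The mCre-TN libraries were the lowest pair and the WT-MP libraries the highest pair, and the 2 WT-TN libraries lay furthest apart. The subunits moved together. The summed counts of the 60S genes were 1.00 to 1.02 times those of the 40S genes in every library.

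**Figure D1:**
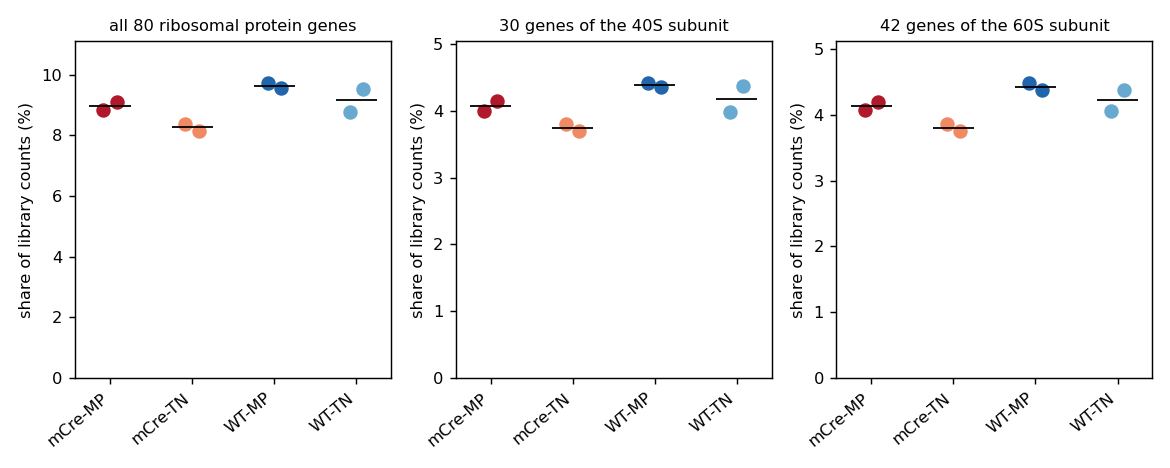
Share of library counts (%, y axis) in all 80 ribosomal protein genes, in the 30 of the 40S subunit and in the 42 of the 60S subunit, by group (x axis); points are libraries and lines are means of 2. The WT-MP pair lies highest (9.71% and 9.56% for all genes) and the mCre-TN pair lowest (8.37% and 8.15%).

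Per kilobase of annotated transcript, the level ran over a wide range. Rplp1, a P stalk protein, was highest at 5463 CPM per kilobase, followed by the 40S genes Rps27 (4903), Rps14 (3793), Rps15 (3498) and Rps18 (3172). The median of the 80 genes was 1273 CPM per kilobase. Lowest were the 60S gene Rpl13a (8.12), Rps27rt (14.8), Rps19bp1 (15.6), Rps27l (53.9) and Rpl7l1 (60.1). The next lowest subunit gene, Rpl29, stood at 197 CPM per kilobase, and 73 of the 80 genes had a mean of at least 200 CPM. Ribosomal protein genes have many processed copies in the genome, and 78 of the 80 shared at least one 50-base window with a transcript of another gene (median 57% of windows). Where reads matching several places were dropped or split, the counts of these genes are incomplete. For Rpl13a (chromosome 7, 45125558 to 45128761), 35.4% of exon bases are also annotated to other genes of the same strand, so its value of 8.51 CPM is uncertain.

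The first comparison set MP against TN cells within each genotype. More ribosomal protein genes rose than fell in MP in each genotype, by small amounts, and many did not pass the test. In mCre, 44 of the 80 genes rose in MP and 2 fell, against 17% of all tested genes higher and 15.5% lower. The median log2 fold change was 0.15 (all tested genes 0.00), and called increases ran from 1.10-fold to 1.40-fold. In WT, 27 rose and 4 fell, against 16.2% higher and 15.6% lower, with a median log2 fold change of 0.10 (all tested genes −0.00). The libraries did not overlap, with MP above TN, for 58 genes in mCre (29.5% of all genes) and 40 in WT (30% of all genes), and with MP below TN for 6 in mCre (37.5%) and 6 in WT (34.1%).

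The 2 genotypes share no library in this comparison. Of the genes that rose, 23 did so in both, which is 52.27% of the 44 in mCre and 85.19% of the 27 in WT. The sign was positive in both genotypes for 64 genes and negative in both for 7. Averaged over genotypes, 50 genes rose and 2 fell (23.3% and 22% of all genes), with 19 of 30 higher for the 40S subunit, 28 of 42 for the 60S subunit and 2 of 3 for the P stalk.

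Rps12, a 40S protein, had 998 and 944 CPM in mCre-MP, against 784 and 736 CPM in mCre-TN. In WT it had 1125 and 1134 CPM in MP, against 783 and 888 CPM in TN. Both MP libraries lay above both TN libraries in each genotype. The log2 fold change was 0.38 (SE 0.0568, adjusted p = 2.8e-05, edgeR) in mCre and 0.45 (SE 0.0569, adjusted p = 4.23e-06, edgeR) in WT.

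Rpl29, a 60S protein, had 158 and 153 CPM in mCre-MP, against 112 and 116 CPM in mCre-TN. In WT it had 165 and 153 CPM in MP, against 133 and 126 CPM in TN. It too was separated in both genotypes, with log2 fold changes of 0.48 (SE 0.0549, adjusted p = 1.09e-06, edgeR) in mCre and 0.31 (SE 0.0553, adjusted p = 0.000228, edgeR) in WT. Rps13 of the 40S subunit rose by a log2 fold change of 0.31 in mCre and 0.24 in WT. Rpl17, a 60S protein near the exit of the peptide tunnel, rose by 0.22 in mCre and 0.27 in WT, and the WT call was lost with the first form of the length and GC offsets.

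**Figure D2:**
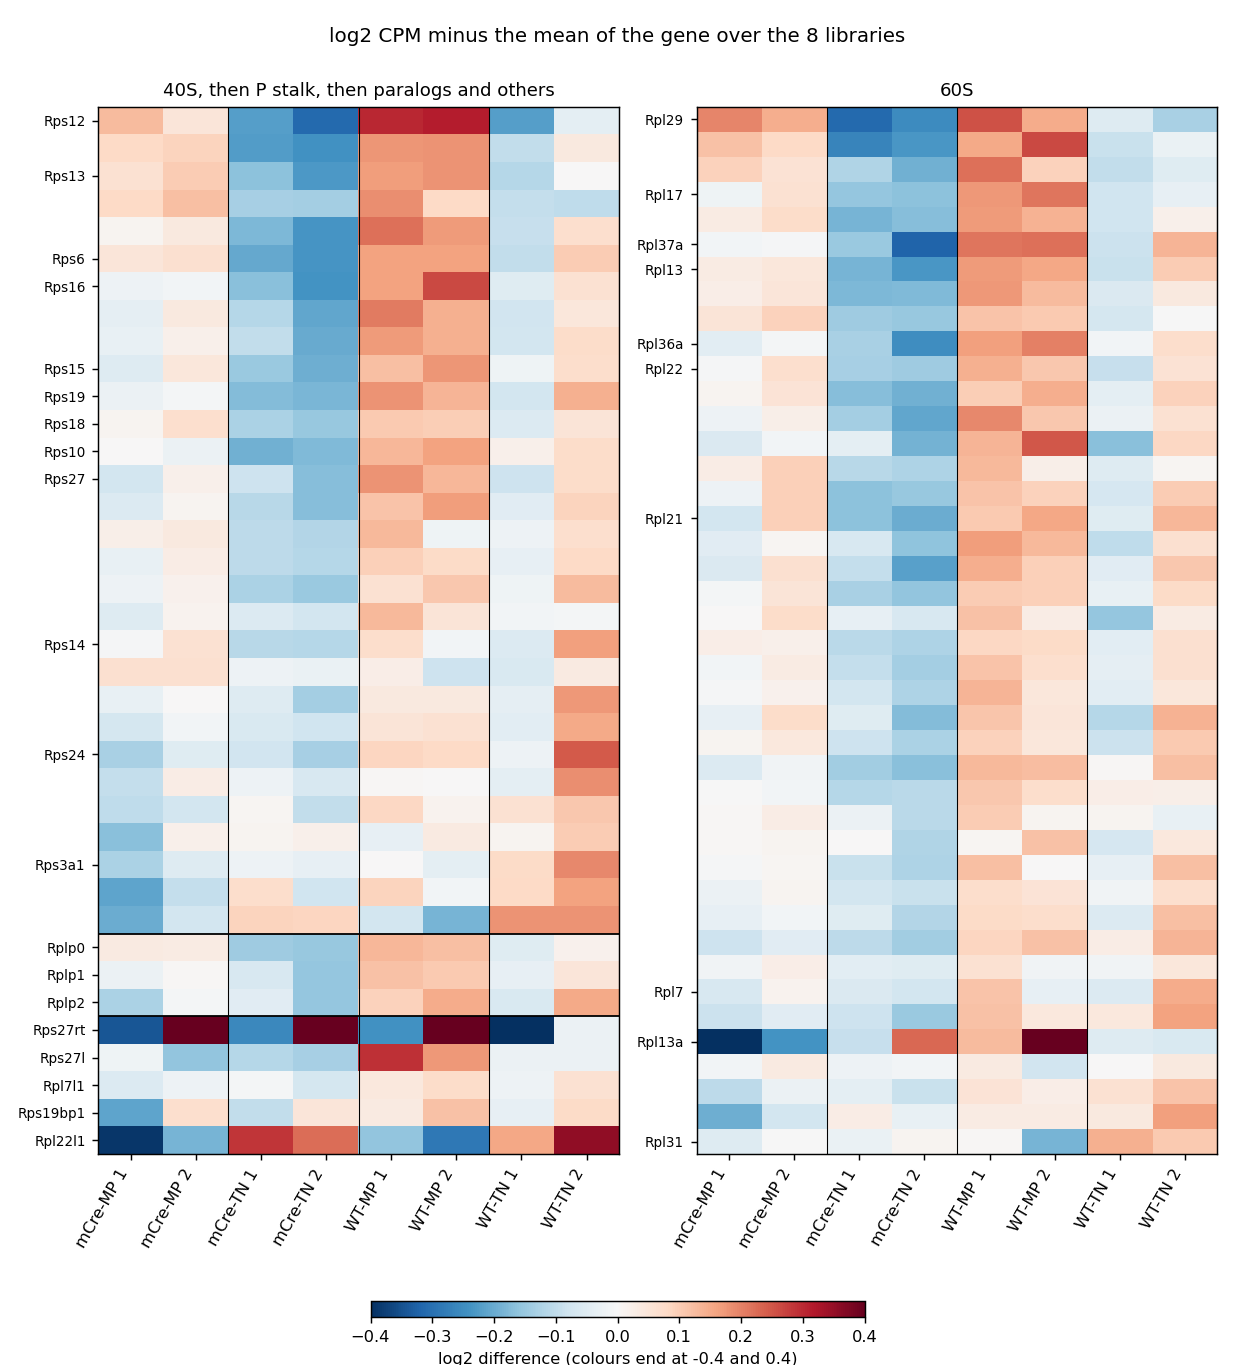
Each row is 1 of the 80 genes and each column a library; colour gives log2 CPM minus the gene's mean over the 8 libraries, with the scale ending at -0.4 and 0.4 and rows ordered within each class by the MP against TN difference. Many rows are lowest in mCre-TN and high in WT-MP, while Rpl22l1 in the last row of the left panel runs the other way between subsets; row labels are given for genes named in the text.

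Rpl22l1 fell in MP in both genotypes. It is the paralog of Rpl22, an RNA-binding 60S protein needed in mouse T cell development. Rpl22l1 had 147 and 169 CPM in mCre-MP, against 234 and 224 CPM in mCre-TN, and 172 and 158 CPM in WT-MP, against 214 and 246 CPM in WT-TN. The libraries did not overlap in either genotype. The log2 fold change was −0.51 (SE 0.0803, adjusted p = 0.000463, edgeR) in mCre and −0.46 (SE 0.0807, adjusted p = 0.000931, edgeR) in WT. Rpl22 itself rose, with 661 and 694 CPM in mCre-MP, against 605 and 601 CPM in mCre-TN, and 732 and 715 CPM in WT-MP, against 622 and 690 CPM in WT-TN.

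The ratio of Rpl22l1 to Rpl22 counts within a library needs no scaling between libraries. It was 0.233 ± 0.015 in mCre-MP and 0.380 ± 0.010 in mCre-TN, and 0.228 ± 0.010 in WT-MP and 0.351 ± 0.0087 in WT-TN (SD, n = 2 each). All 4 MP libraries lay under all 4 TN libraries. The MP minus TN difference of the log2 ratio was −0.66, with an exact permutation p of 0.0556 (2-sided, n = 8, labels permuted within genotype), the smallest that 36 arrangements allow, and 0.333 after adjustment over the 6 ratio tests made. The mCre minus WT difference of the same log2 ratio was 0.07 (exact permutation p = 0.167, adjusted 0.5). For Rps27l over Rps27 and for Rpl7l1 over Rpl7 the subset differences were 0.01 and 0.00 (exact permutation p = 0.889 and 0.944).

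**Figure D3:**
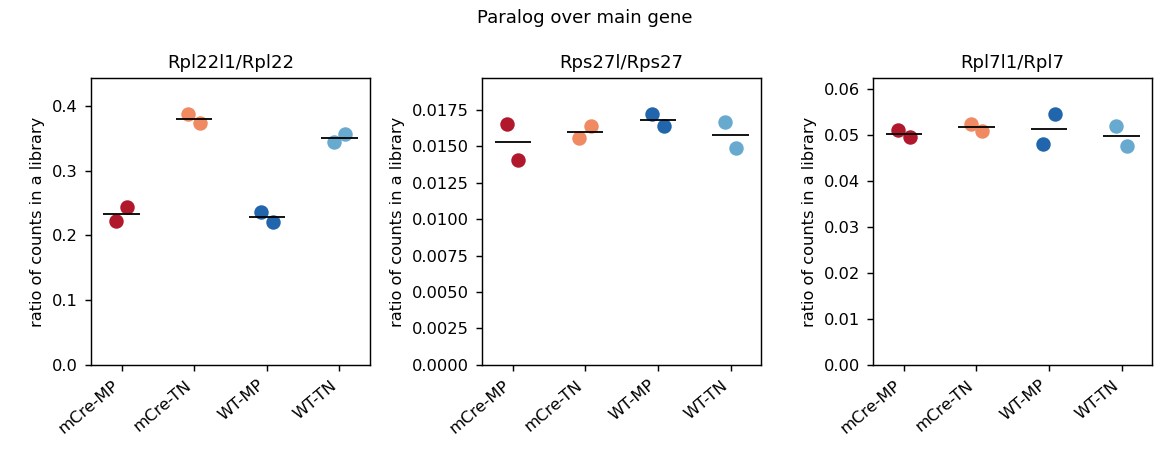
Ratio of paralog counts to those of the main gene in each library (y axis) by group (x axis), for Rpl22l1 over Rpl22, Rps27l over Rps27 and Rpl7l1 over Rpl7; points are libraries and lines are means of 2. The Rpl22l1 ratio is lower in MP (0.233 in mCre, 0.228 in WT) than in TN (0.380 and 0.351).

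Rpl31 of the 60S subunit and Rps3a1 of the 40S subunit fell in WT (log2 −0.20 and −0.14) and were at 0.01 and −0.03 in mCre; the interaction test called neither (edgeR adjusted p = 0.721 and 0.924). The Rpl31 call was lost without WT-MP replicate 2 or WT-TN replicate 1, and the Rps3a1 call without any 1 of the 8 libraries other than WT-TN replicate 1. Offsets for GC content alone also ended the Rpl31 call. The Rps3a1 call was also lost without the expression filter and with 2 groups fitted alone.

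The other paralogs and related genes had lower counts. Rps27l, a p53-responsive paralog of Rps27, rose in WT (log2 0.27, SE 0.086, adjusted p = 0.0201, edgeR) and was at 0.07 in mCre; the WT call was lost with DESeq2, with the length and GC offsets, and without WT-MP replicate 1, WT-TN replicate 1 or WT-TN replicate 2. Rpl7l1, related to Rpl7, was at 0.03 in mCre and 0.05 in WT, and Rps19bp1, which encodes a protein that binds Rps19, at 0.00 and 0.07. Rps27rt, near the CPM limit, was at 0.00 (SE 0.469) in mCre and 0.63 (SE 0.503) in WT, with none of these 3 genes called.

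**Figure D4:**
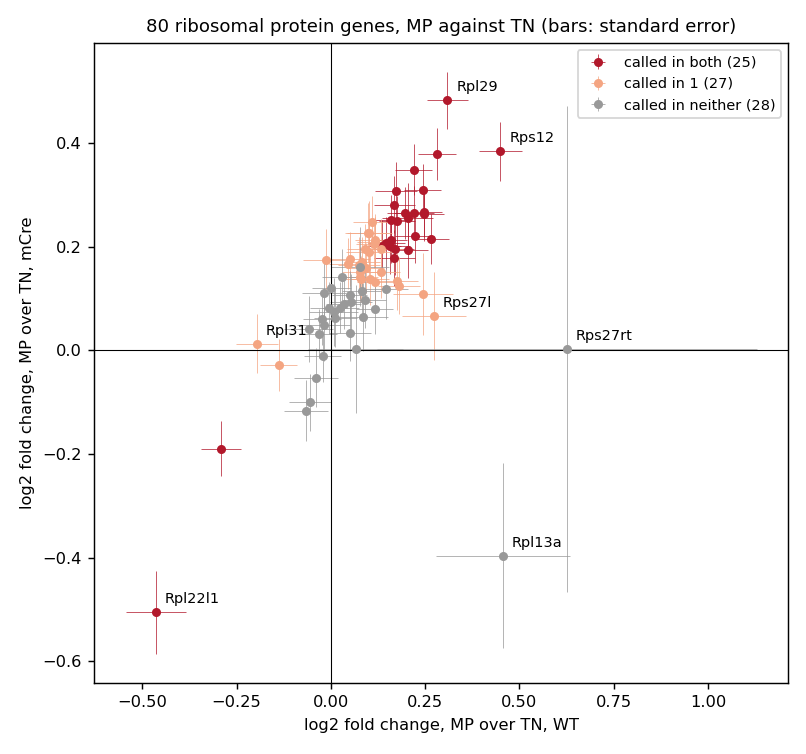
Log2 fold change of MP over TN in mCre (y axis) against WT (x axis) for the 80 genes, with standard errors as bars; colour marks genes called in both genotypes (25), in 1 (27) or in neither (28). Most genes lie in the upper right; Rpl22l1 lies in the lower left.

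The MP against TN median in WT turned negative under 1 of the 2 forms of offset for transcript length and GC content, the form that also moved the scaling of the libraries. The 80 genes have short transcripts (median 751 bases, against 2714 for all tested genes), and the 1084 other tested genes under 1000 bases had median log2 fold changes of 0.06 in mCre and 0.07 in WT. With offsets for length and GC content, 16 genes rose and 9 fell in mCre (median 0.03; 13.1% and 21.7% of all genes) and 4 rose and 18 fell in WT (median −0.03; 12.3% and 22.4% of all genes), while the median of all tested genes moved to −0.06 and −0.08. With the same offsets and library medians kept, a form chosen after the first was seen, 30 rose and 6 fell in mCre (median 0.09; 17.7% and 15.3% of all genes) and 16 rose and 7 fell in WT (median 0.03; 16.2% and 14.9%). Under both forms Rps12 and Rpl29 rose and Rpl22l1 fell in each genotype; with the first, Rpl22l1 was at −0.72 in mCre and −0.73 in WT. The count of genes higher in MP in mCre was 21 when mCre-MP replicate 2 was left out and 24 when mCre-TN replicate 2 was. In WT, leaving out WT-MP replicate 1 gave 14, WT-MP replicate 2 gave 16, WT-TN replicate 1 gave 12 and WT-TN replicate 2 gave 46.

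In bulk RNA, a change in the share of cells that express a gene cannot be told apart from a change in RNA per cell. Of 11 genes listed as markers of NK or innate lymphoid cells, 10 were higher in MP in each genotype. Their summed level was 1261 to 1328 CPM in mCre-MP and 530 to 536 CPM in mCre-TN, and 1273 to 1320 CPM in WT-MP and 512 to 534 CPM in WT-TN. Nkg7 was highest, at 506 to 532 CPM in MP and 331 to 343 CPM in TN. Il18rap was at 371 to 417 CPM in MP and 15.55 to 26.57 CPM in TN. Ncr1, a defining NK receptor gene, was at 0.164 to 0.686 CPM in MP and at 0 in TN. Klrb1c was at 1.91 to 2.74 CPM in MP, Klra8 at 0.244 to 1.28 CPM, and both at 0 in TN. Klre1 reached 12.3 CPM in MP. Whether these transcripts came from the sorted CD8+ cells or from NK or innate lymphoid cells was not tested. Nor was the part of such cells in the ribosomal protein result tested.

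The second comparison set mCre against WT within each subset. Some ribosomal protein genes fell in mCre, by small amounts, and none rose; most did not pass the test within a subset. In TN, 0 of the 80 genes rose and 21 fell, against 1.55% of all tested genes higher and 1.92% lower, with a median log2 fold change of −0.15 (all tested genes −0.00). In MP, 0 rose and 5 fell, against 2.08% higher and 1.97% lower, with a median of −0.09 (all tested genes 0.00). By edgeR at an unadjusted p under 0.05, 0 genes were higher and 58 lower in TN (7.89% and 9.08% of all genes), and 0 were higher and 33 lower in MP (8.36% and 8.96%). DESeq2 called 0 higher and 28 lower in TN (1.45% and 1.49% of all genes) and 0 higher and 14 lower in MP (1.65% and 1.28%). Both mCre libraries lay under both WT libraries for 61 genes in TN (20.6% of all genes) and 58 in MP (24.8% of all genes).

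Averaged over subsets, 0 genes rose and 45 fell, against 4.99% of all tested genes higher and 5.9% lower. At an unadjusted p under 0.05, 0 were higher and 63 lower (12% and 12.8% of all genes), and DESeq2 called 0 higher and 49 lower (3.25% and 3.67% of all genes). The genes that fell numbered 20 of 30 in the 40S subunit, 21 of 42 in the 60S subunit, 3 of 3 in the P stalk and 1 of 5 among paralogs and related genes. The called decreases ran from 0.840-fold to 0.929-fold. All mCre libraries of both subsets lay under all WT libraries for 9 genes (2.75% of all genes) and above them for 0 (4.02%). The sign was negative in both subsets, which share no library, for 74 of the 80 genes. The subsets may still not be independent. Differences between replicates correlated between MP and TN at 0.224 in mCre and 0.21 in WT. The test averaged over subsets treats all libraries as independent. Rpl36a and Rps16 were called in both subsets, 9.524% of the 21 in TN and 40% of the 5 in MP.

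Rps16, a 40S protein, had 1375 and 1383 CPM in mCre-MP, against 1558 and 1674 CPM in WT-MP. In TN it had 1242 and 1180 CPM in mCre, against 1347 and 1453 CPM in WT. The mCre libraries lay under the WT libraries in each subset, with log2 fold changes of −0.23 (SE 0.0513, adjusted p = 0.0151, edgeR) in MP and −0.22 (SE 0.0514, adjusted p = 0.0189, edgeR) in TN.

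Rpl36a, a 60S protein, had 481 and 493 CPM in mCre-MP, against 555 and 569 CPM in WT-MP, and 452 and 417 CPM in mCre-TN, against 491 and 519 CPM in WT-TN. It was again separated in both subsets (log2 −0.21 and adjusted p = 0.0283 in MP, log2 −0.23 and adjusted p = 0.0149 in TN, edgeR). Rps10, a 40S protein, had 236 and 233 CPM in mCre-MP, against 259 and 264 CPM in WT-MP, and 207 and 209 CPM in mCre-TN, against 240 and 249 CPM in WT-TN. All 4 mCre libraries lay under all 4 WT libraries for Rps10, and the difference averaged over subsets was −0.20 (SE 0.0339, adjusted p = 0.000687, edgeR). Of the Rps10 exon bases, 20.6% are also annotated to other genes of the same strand, and 78.8% of its 50-base windows are shared. Its counts may be incomplete too.

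Rpl37a, a 60S protein, had the largest called decrease averaged over subsets, a log2 fold change of −0.25 (SE 0.0476, adjusted p = 0.00372, edgeR). In TN the largest called decreases after Rpl37a (−0.28) and Rps10 (−0.25) were those of Rpl21 (−0.24), Rps6 (−0.24) and Rpl13 (−0.23). Rps6 is the 40S protein phosphorylated by the S6 kinases. In MP, the largest called were those of Rpl13a (−0.75), Rps27l (−0.32) and Rps12 (−0.22), besides Rps16 and Rpl36a. Rpl13a had 5.78 and 7.04 CPM in mCre-MP, against 9.07 and 12.7 CPM in WT-MP, and 7.79 and 9.74 CPM in mCre-TN, against 8.01 and 7.96 CPM in WT-TN; its counts are low and uncertain as described above. Rps27l had 26.4 and 24.0 CPM in mCre-MP, against 32.8 and 30.2 CPM in WT-MP. Averaged over subsets, Rps27l and Rps24 fell as well (−0.22 and −0.20; edgeR adjusted p = 0.0263 and 0.0232), but 5 single libraries for Rps27l and 4 for Rps24 ended the call when left out, as did DESeq2 for Rps27l.

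**Figure D5:**
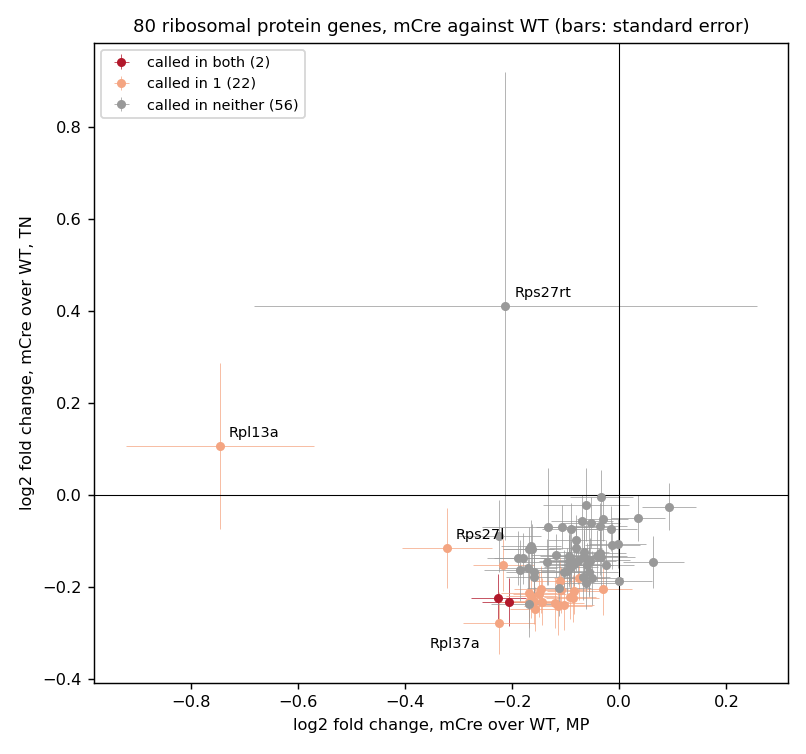
Log2 fold change of mCre over WT in TN (y axis) against MP (x axis) for the 80 genes, with standard errors as bars; colour marks genes called in both subsets (2), in 1 (22) or in neither (56). Nearly all genes lie in the lower left, 74 of the 80 with both values below 0.

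The calls in single subsets rest on few libraries. In TN the count of genes lower in mCre was 0 when WT-TN replicate 2 was left out and 49 when WT-TN replicate 1 was; leaving out mCre-TN replicate 1 gave 4 and mCre-TN replicate 2 gave 1. The TN call of Rpl37a was also lost with total counts as scaling, with 2 groups fitted alone and with a replicate block, and that of Rpl21 with total counts and with offsets for GC content alone. In MP leaving out WT-MP replicate 2 gave 0, WT-MP replicate 1 gave 2, either mCre-MP library gave 1, WT-TN replicate 1 gave 24 and WT-TN replicate 2 gave 21. The MP calls of Rps12 and Rpl36a were lost without any 1 of the 4 MP libraries, that of Rps16 without any but WT-MP replicate 1, that of Rps27l without any but mCre-MP replicate 1 and with DESeq2, and that of Rpl13a without mCre-MP replicate 1 or WT-MP replicate 2. Averaged over subsets leaving out mCre-MP replicate 1, mCre-TN replicate 2 or WT-MP replicate 1 gave 24, and WT-MP replicate 2 gave 26. With length and GC offsets, 0 rose and 49 fell in TN (1.66% and 2.9% of all genes), 0 rose and 20 fell in MP (2.12% and 2.57%), and 0 rose and 55 fell averaged over subsets (4.76% and 7.09%).

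Markers of macrophages and other myeloid cells also differed by genotype. Of 14 tested markers, 0 were higher and 7 were lower in mCre averaged over subsets (median log2 fold change −1.16), with 4 lower in TN and 3 in MP. The sum of the 16 listed markers was 40.9 and 45.5 CPM in mCre-MP and 42.6 and 37.6 CPM in mCre-TN, against 75.2 and 49.7 CPM in WT-MP and 69.4 and 52.8 CPM in WT-TN. S100a8 and S100a9 were at 0 in 6 of the 8 libraries. Of 6 tested red cell and platelet markers, 2 were higher in mCre averaged over subsets. The 9 listed summed to 27.6 and 50.3 CPM in mCre-MP and 33.3 and 67.6 CPM in mCre-TN. In WT the sums were 25.4 and 18.1 CPM in MP and 28.3 and 28.2 CPM in TN. The mCre libraries of replicate 1 thus lay near the WT libraries, and those of replicate 2 were the highest. The part of these cells in the ribosomal protein result was not tested.

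The interaction, the MP against TN difference in mCre minus that in WT, called 0 of the 80 genes in either direction by edgeR (0.0487% of all genes higher, 0.0812% lower) and 0 by DESeq2 (0.0797% and 0.0731%). At an unadjusted p under 0.05 by edgeR, 3 were higher and 1 lower (3.03% and 2.89% of all genes). The median interaction was 0.06 on the log2 scale. Rpl13a had the lowest value, −0.85 (SE 0.252, adjusted p = 0.448, edgeR).

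Ribosomal proteins whose symbols lie outside the pattern were read from the same fit. Rpsa, a 40S protein, rose in MP by a log2 fold change of 0.29 in mCre and 0.23 in WT. Rack1, a signalling scaffold on the 40S subunit, rose by 0.20 in mCre and 0.12 in WT, and it fell in mCre against WT in TN by 0.17 on the log2 scale. Fau, the precursor of a 40S protein, rose in MP by 0.15 in mCre and was at 0.07 in WT. Averaged over subsets, Rpsa (−0.13), Rack1 (−0.13) and Fau (−0.15) fell in mCre.

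Among 21 tested elongation factors and other TOP mRNAs, 12 rose and 1 fell in MP averaged over genotypes, against 23.3% of all tested genes higher and 22% lower (median log2 fold change 0.10). Vim (0.52), Npm1 (0.29) and Eif3f (0.23) had the smallest p among those that rose, and Hnrnpa1 fell (−0.16). In mCre against WT averaged over subsets, 1 of the 21 rose and 4 fell, against 4.99% and 5.9% of all tested genes (median −0.07). Of 30 initiation factors, 11 rose and 3 fell in MP (23.3% and 22% of all tested genes), led by Eif3m (0.24), Eif3g (0.21) and Eif2s2 (0.19) against Eif4g3 (−0.22), Eif4g2 (−0.09) and Eif2b1 (−0.15). In mCre against WT, 0 of the 30 rose and 1 fell (4.99% and 5.9% of all tested genes; median 0.00).

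Of 50 ribosome biogenesis genes, 13 rose and 1 fell in MP averaged over genotypes; the share that rose lay near the 23.3% of all tested genes, and 22% of all tested genes fell. Bysl, needed for 40S maturation, rose by 0.42, the nucleolar protein gene Ncl by 0.18 and Nop10 by 0.20, and Ubtf, a factor for RNA polymerase I, fell by 0.18. In mCre against WT averaged over subsets, 4 of the 50 rose and 1 fell (4.99% and 5.9% of all tested genes; median 0.03), Bysl among those that rose (0.24, SE 0.0464, adjusted p = 0.00227, edgeR). Of 78 mitochondrial ribosomal protein genes, 18 rose and 2 fell in MP, again with a share higher near the 23.3% of all tested genes, with Mrpl52 (0.54), Mrps16 (0.36) and Mrpl16 (0.41) against Mrpl49 (−0.15) and Mrps36 (−0.32). In mCre against WT, 0 of these 78 rose and 2 fell (4.99% and 5.9% of all tested genes; median −0.01).

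Of 24 tested regulators of ribosomal protein synthesis, 5 rose and 7 fell in MP averaged over genotypes, not far from the 23.3% and 22% of all tested genes. Rptor, the defining subunit of mTOR complex 1, had 156 and 135 CPM in mCre-MP, against 79.6 and 80.1 CPM in mCre-TN, and 158 and 169 CPM in WT-MP, against 80.6 and 79.0 CPM in WT-TN. The MP libraries lay well above the TN libraries in both genotypes, with a log2 fold change averaged over genotypes of 0.97 (SE 0.0441, adjusted p = 8.54e-13, edgeR). Larp1 rose by 0.48 and Myc, a transcription factor that drives ribosome production, by 0.26. Rictor of mTOR complex 2 (−0.33), Tsc1, an inhibitor of mTOR complex 1 signalling (−0.32), and Mdm2, which several free ribosomal proteins bind (−0.23), fell. In mCre against WT averaged over subsets, 1 of the 24 rose and 3 fell, against 4.99% and 5.9% of all tested genes (median 0.01). The 1 that rose was Larp1 (0.17, SE 0.036, adjusted p = 0.00485, edgeR).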

How the data were processed

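RNA was measured in 8 libraries in 4 groups of 2, grouped by the sample titles. The deposited table holds unnormalised read counts by gene and library. The authors used Trim Galore, HISAT2 and featureCounts with the mm10 build, per the submitters' processing notes. Not given in the sources used here: versions, annotation, strand setting and how reads matching several places were counted. All 29426 symbols were found in GENCODE M21, which uses the same assembly (GRCm38), and 0 rows named no gene. The 80 ribosomal protein genes, the gene lists and the tests were chosen with earlier results of these data known.

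CPM values are counts scaled to the library total. Differences were tested with edgeR 4.0.16 in R 4.3.3 (TMM scaling, edgeR's expression filter, robust quasi-likelihood F test, 2-sided) in 1 fit of all 8 libraries with a mean per group. Benjamini-Hochberg adjustment ran over the 12313 genes tested, with calls at an adjusted p under 0.05. The procedure was also run on simulated counts with independent libraries and the same dispersion for every gene, with the outcome not reported here. These simulations did not cover correlated libraries or fold changes as small as the smallest called here. The genes named were the 5 strongest in each direction among called genes of each comparison, the 5 highest and 5 lowest by CPM per kilobase of transcript, those next to the CPM limit of 5, all paralogs, and up to 3 per direction from each other list; some of these genes are not reported here.

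Paralog ratios used a prior count of 2 and an exact permutation test. Other settings were DESeq2 1.42.0, other scalings, no expression filter, 2 groups fitted alone, a replicate block, each library left out in turn, and offsets for transcript length and GC content from smooth curves (mgcv 1.9.3) fitted on the other genes. The length and GC offsets were first run as curves with their own level, which also moved the scaling of the libraries. A second form, with the median offset of each library set to 0, was added after the first had been seen to turn the sign of some medians. Both forms are reported.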

Additional observations from a re-analysis of the deposited data

How the results depend on the processing

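The lower level in mCre kept its sign in the median under each setting run, and the MP against TN median kept its sign except under the length and GC offsets that also moved the scaling of the libraries. Under those offsets, without and with the replicate block, the MP against TN medians were 0.02933 and 0.02907 in mCre, −0.03481 and −0.03406 in WT, and −0.008625 and −0.008649 averaged over genotypes. Genes higher in MP were then 16 and 18 in mCre, 4 and 4 in WT, and 16 and 17 averaged; genes lower were 9 and 10, 18 and 20, and 17 and 18. Genes lower in mCre were 49 and 52 in TN and 20 and 24 in MP. With library medians kept, a form added after the first was seen, the medians were 0.094 in mCre, 0.032 in WT and 0.0572 averaged, with 6 lower in mCre, 16 higher and 7 lower in WT, 33 higher and 9 lower averaged, and 43 lower in mCre in TN and 17 in MP. With length alone, also added, the medians were 0.08607, 0.02077 and 0.06001, with 6 lower in mCre, 14 higher and 8 lower in WT, 30 higher and 8 lower averaged, and 43 and 18 lower in mCre in TN and MP; GC alone moved no count by over 1.5 times.

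Total counts as scaling gave 6 genes lower in MP averaged over genotypes, and a replicate block within genotype, also added, gave 4. Without the expression filter, 32 genes were lower in mCre in TN and 23 in MP, and 1 was lower in the interaction. DESeq2 gave 14 lower in mCre in MP, and 2 groups fitted alone gave 12 in TN and 21 in MP. Same-numbered replicates correlated at 0.224 in mCre and 0.21 in WT and between −0.043 and 0.0374 across genotypes; with 2 numbers they were not taken as pairs, and the replicate block alone moved no count by over 1.5 times. The causes of these shifts were not tested.

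Leaving out 1 library at a time, genes higher in MP were 21 to 52 in mCre, 12 to 46 in WT and 40 to 62 averaged; genes lower in MP were 1 to 2, 2 to 4 and 2 to 4. Genes lower in mCre were 0 to 49 in TN, 0 to 24 in MP and 24 to 60 averaged. Medians ran from 0.128 to 0.181, 0.0527 to 0.174 and 0.11 to 0.177 for MP against TN, from −0.216 to −0.0934, −0.126 to −0.0801 and −0.161 to −0.0987 for mCre against WT, and from 0.0061 to 0.108 for the interaction. With 2 libraries per group, differences of this size lie close to the spread between replicates.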

Other observations

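Of the genes under the CPM limit, Rpl39l, a paralog of Rpl39 known from mouse testis, had 1.14 and 1.67 CPM in mCre-MP, against 0.233 and 0.0518 CPM in mCre-TN, and 1.80 and 0.320 CPM in WT-MP, against 0.668 and 0.161 CPM in WT-TN. The mCre libraries were separated and the WT libraries overlapped. Rpl23a, whose windows of 50 bases were shared with other genes' transcripts at 85.7%, had 0.898 to 1.61 CPM in the 8 libraries, and Rpl10l had 0 in all 8.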
